A study of Mus musculus with 21 samples.

Results

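The resting profile of adult striatal microglia was taken from the control saline libraries, 6 of the 21 libraries of the series, chosen by their titles alone. Microglia were taken from male mice 8 to 10 weeks old of the control group, the counterpart of mice after maternal immune activation (MIA, an immune challenge of the pregnant dam), 18 hours after an intraperitoneal injection of saline in place of lipopolysaccharide. The strain, the vehicle the control dams received and the agent and day of the maternal challenge are not given in the labels. Anterior, dorsal and ventral striatum were pooled, digested for 30 min at 37 °C with DNase and papain, and live cells positive for CD11b and P2RY12 and low for CD45 were sorted. Libraries were made from 5 ng of RNA by a modified Smart-Seq2 protocol, primed at the poly(A) tail and amplified in 9 PCR cycles. All 6 belong to batch 1. Each has an ID of its own, and the labels do not say whether it is 1 mouse, so the spread between libraries may in part be technical. The ID of replicates 3 and 4 shares its second number, whose meaning is not stated.

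Microglia are the resident macrophages of the brain parenchyma. At rest they survey the tissue with motile processes steered by purine receptors, take up debris and synaptic material through lysosomes, and make most of the brain's complement C1q. Their identity is held by signalling through CSF1R and TGF-beta receptors and by transcription factors such as PU.1 and SALL1. Enzymatic dissociation at body temperature is known to induce immediate early genes in microglia.

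Deposited counts summed to between 11.9 M and 19.0 M per library (M, 1e+06 counts). Between 47.6% and 56.3% of them came from ribosomal RNA and mitochondrial genes, mainly the ribosomal RNA gene CT010467.1 with 48.0% on average, and were left out. The remaining 5.86 M to 8.42 M counts per library gave the counts per 1e+06 (CPM). Single genes were ranked per length, as counts per kilobase of merged exon scaled to sum to 1e+06 in each library (TPM), while sums and shares of gene lists are in CPM. Replicate 5 stood apart: on the first principal component, with 38.3% of the variance of log2 CPM, it lay at 31.7 and the other libraries between -16.8 and 1.05. Replicate 5 held the most counts before the removal and the largest removed share, while replicate 1 kept the most counts (8.42 M against 8.29 M). The sorted proteins' own genes were present in every library, with Itgam (CD11b) at 620 to 644 CPM, Ptprc (CD45) at 493 to 706 CPM and P2ry12 at 3763 to 4753 CPM. Of the markers of the labelled sex, Y-linked Ddx3y averaged 172 CPM and Xist 0.454 CPM.

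The promoters of 7 genes are shown because the groups they stand for turn up below among the highest and among the least even genes. They are the 250 bases before the RefSeq start site (GRCm38.p6), read 5′ to 3′ on the gene's strand. Genes and motifs were picked after the levels were seen, and a match describes letters only. In P2ry12 (chr3:59262986-59263235, minus strand), the purine receptor of the sort, and C1qb (chr4:136886201-136886450, minus strand), a C1q chain, capitals mark AGGAAGT, a core that ETS factors such as PU.1 are known to bind, 52 and 53 bases before the start.
P2ry12: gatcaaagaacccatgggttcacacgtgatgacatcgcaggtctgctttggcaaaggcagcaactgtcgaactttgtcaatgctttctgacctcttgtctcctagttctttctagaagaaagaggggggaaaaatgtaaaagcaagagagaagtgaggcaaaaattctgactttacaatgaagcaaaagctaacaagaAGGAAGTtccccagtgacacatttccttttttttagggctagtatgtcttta
C1qb: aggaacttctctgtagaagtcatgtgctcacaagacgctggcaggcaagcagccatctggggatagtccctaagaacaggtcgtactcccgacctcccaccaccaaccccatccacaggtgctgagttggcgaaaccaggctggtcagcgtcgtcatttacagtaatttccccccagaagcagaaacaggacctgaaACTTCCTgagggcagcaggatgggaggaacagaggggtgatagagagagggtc
In Ctsd (chr7:142387828-142388077, minus strand), cathepsin D, and Lgmn (chr12:102439093-102439342, minus strand, 1 of 2 starts), the lysosomal protease legumain, capitals mark CACGTG, a core known to be bound by TFEB and by other E-box factors. Ctsd holds it 245 and 98 bases before the start and Lgmn 49 bases before.
Ctsd: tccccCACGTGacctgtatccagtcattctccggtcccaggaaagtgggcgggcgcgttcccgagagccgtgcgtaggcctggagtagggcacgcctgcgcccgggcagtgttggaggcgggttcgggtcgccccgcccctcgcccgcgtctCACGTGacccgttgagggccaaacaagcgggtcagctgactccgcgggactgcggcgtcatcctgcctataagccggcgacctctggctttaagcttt
Lgmn: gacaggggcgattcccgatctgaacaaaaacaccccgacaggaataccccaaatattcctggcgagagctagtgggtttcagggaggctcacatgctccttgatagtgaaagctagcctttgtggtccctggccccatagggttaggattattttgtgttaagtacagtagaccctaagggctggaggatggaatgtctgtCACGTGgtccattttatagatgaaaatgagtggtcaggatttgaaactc
In Hspa1b (chr17:34959239-34959488, minus strand), an inducible HSP70, Hsph1 (chr5:149636337-149636586, minus strand, 1 of 2 starts), an HSP110, and Dnaja1 (chr4:40722218-40722467, plus strand, 1 of 3 starts), an HSP40 co-chaperone, capitals mark GAA and TTC, in either order, with 2 bases of any kind between them, a pair of inverted heat shock elements. The pair begins 104, 33 and 124 bases before the start.
Hspa1b: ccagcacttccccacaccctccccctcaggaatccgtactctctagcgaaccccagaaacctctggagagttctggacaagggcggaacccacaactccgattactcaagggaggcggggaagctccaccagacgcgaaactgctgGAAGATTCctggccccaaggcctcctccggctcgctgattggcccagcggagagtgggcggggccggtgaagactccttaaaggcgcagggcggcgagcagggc
Hsph1: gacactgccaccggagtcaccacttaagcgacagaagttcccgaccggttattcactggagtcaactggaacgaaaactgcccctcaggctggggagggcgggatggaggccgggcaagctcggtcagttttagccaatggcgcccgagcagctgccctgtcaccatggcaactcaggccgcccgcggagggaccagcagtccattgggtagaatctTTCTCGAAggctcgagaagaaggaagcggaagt
Dnaja1: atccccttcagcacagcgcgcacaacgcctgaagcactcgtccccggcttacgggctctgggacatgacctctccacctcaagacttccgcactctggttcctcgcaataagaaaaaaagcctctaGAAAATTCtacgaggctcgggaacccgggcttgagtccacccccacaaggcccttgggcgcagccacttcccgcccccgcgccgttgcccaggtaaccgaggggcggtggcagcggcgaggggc
Both strands were searched, and no motif contains another. Over all 27025 genes with a promoter in the RefSeq table, 8.80% held AGGAAGT, 6.86% CACGTG and 14.5% the inverted pair. AGGAAGT lay in 5 of 18 matched promoters among the 25 highest genes (C1qb, C1qc, Selenop, P2ry12 and Fcrls). The inverted pair lay in 6 of the same 18 (C1qb, Ctss, B2m, C1qc, P2ry12 and Cd81) and CACGTG in 3 (Ctsd, P2ry12 and Lgmn). P2ry12 thus held all 3 motifs and C1qb also the inverted pair, and the capitals above mark only the motif named beside them. CACGTG lay in 8 of 28 matched lysosome genes (Ctsa, Ctsd, Ctsf, Ctsl, Glb1, Lgmn, Lamp1 and Gaa), and the inverted pair in 8 of 12 matched heat shock genes. The motifs were not particular to these groups. CACGTG also lay in 5 of 14 glucocorticoid-responsive and 5 of 16 circadian genes, larger shares than among lysosome genes. AGGAAGT lay in 7 of 19 Toll-like receptor and inflammasome genes, and the inverted pair in 5 of 12 housekeeping genes.

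Cst3, which encodes the cathepsin inhibitor cystatin C, was the highest gene per length in each of the 6 libraries. Its levels were 85912, 92539, 98502, 105367, 111450 and 100415 TPM in replicates 1 to 6, or 99031 ± 9064 (SD, n = 6). C1qb was second on the mean, at 17660 ± 1698 TPM, followed by Ctsd (16252 ± 1819), the cathepsin Ctss (15581 ± 1664) and cytoplasmic actin Actb (15118 ± 1085). These 4 exchanged ranks 2 to 5 between libraries, so their order is not set beyond the spread. The MHC class I light chain B2m reached 10890 ± 1801 TPM and C1qa 10257 ± 480 TPM, and these too overlapped, between 6th and 9th place.

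The nuclear noncoding RNA Malat1 stood 10th with 8733 ± 1706 TPM, and the selenium carrier Selenop 11th with 6737 ± 643 TPM. The fractalkine receptor Cx3cr1 (6048 ± 401 TPM) and P2ry12 (5799 ± 609 TPM) followed within ranks 12 to 15 in all libraries. In 14th place on the mean stood Gm28437, a pseudogene in which 100% of the 31-letter stretches also occur in mitochondrial transcripts, so its level cannot be told apart from theirs. Also among the 25 highest, leaving out Gm28437, were Rplp1, Gpr34, Tmsb4x, Tyrobp, Cd81, Lgmn, Fcrls, Eef1a1, Fcer1g, Ftl1 and Rps4x. Of these, Rplp1, Ftl1 and Eef1a1 shared 75.1%, 64.1% and 51.5% of their 31-letter stretches with other transcripts, and their levels are uncertain for that reason.

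**Figure D1:**
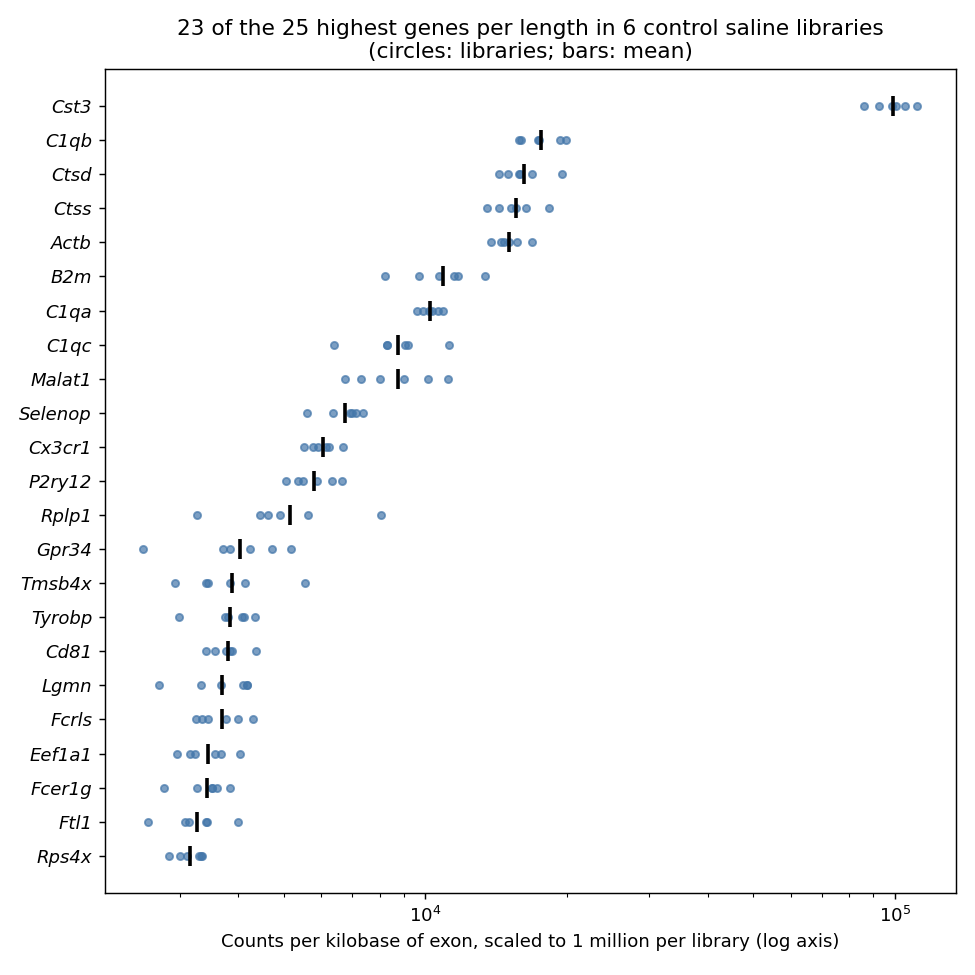
23 of the 25 highest genes per length, which leave out the Gm-numbered gene, with TPM on a log axis, 1 point per control saline library and the mean as a bar mark. Cst3 lies between 85912 and 111450 TPM in all 6 libraries, apart from every other gene.

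Counts were spread over many genes. The 10 genes highest in CPM held 11.3% of it and the top 100 held 26.6%, while 626 genes made up 50% and 5148 made up 90%. Of 21961 protein-coding genes, 11666 had a count in all 6 libraries, and 11423 (52.0%) averaged at least 1 CPM. At least 10 CPM was reached by 8361, at least 100 CPM by 1919 and at least 1000 CPM by 85. Protein-coding genes held 94.3% ± 0.76 of CPM (SD, n = 6) and long intergenic noncoding RNA 2.23%. 

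Lysosomal genes and cathepsins were the most abundant of the 27 biology lists. Their 36 members summed to 7.56% ± 0.64 of CPM (SD, n = 6), with 23 members among the 1000 highest genes per length. Cst3 alone gave 36214 CPM, and without it the list summed to 3.94% ± 0.349 of CPM, below the 4.87% of the homeostatic list. Beside Cst3, Ctsd and Ctss, the list held Lgmn (3686 ± 585 TPM) and Ctsz (2269 ± 314 TPM), a carboxypeptidase. Atp6v0d2, a proton pump subunit, was silent, that is, without a count in any of the 6 libraries.

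The 30 homeostatic microglia genes summed to 4.87% ± 0.39 of CPM, and all 30 averaged at least 10 CPM. Per length, 27 were among the 1000 highest genes and the median member stood at 667 TPM. Beside Cx3cr1 and P2ry12 stood the lysophosphatidylserine receptor Gpr34 (4036 ± 929 TPM), the adaptor Tyrobp (3848 ± 471) and the Fc receptor-like Fcrls (3685 ± 408). Gpr34 was lowest in replicate 5, at 2512 TPM against 3716 to 5190 TPM elsewhere. Among the 32 transcription factors, Sall1 (434 ± 63.4 TPM) and Klf6 (393 ± 85.8 TPM) were in the 3 highest, and Spi1, which encodes PU.1, reached 149 TPM.

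Complement genes summed to 1.64% of CPM, most of it in the initiating C1q chains. C1qc, at 8744 ± 1571 TPM, was lowest in replicate 3 (6396 TPM) and highest in replicate 5 (11221 TPM). C3, the central component that C1q leads to, averaged only 0.113 TPM and was at 0 in 4 of 6 libraries, and C1s1, Cfd and Serping1 were silent. The receptor for the C3a fragment, C3ar1, was the highest of the 25 listed chemokine and chemoattractant receptors, a list that does not hold Cx3cr1, with 368 ± 53.4 TPM, ahead of the oxysterol receptor Gpr183 (260 ± 32.0). Ccr7 and Cxcr1 were silent.

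Among the phagocytic receptors and bridging proteins (1.15% of CPM), the Fc gamma chain Fcer1g (3423 ± 367 TPM), the Fc receptor Fcgr3 (1560 ± 85.4) and the inhibitory receptor Sirpa (1387 ± 164) were highest. The kinase receptor Mertk, which recognises apoptotic cells through bridging proteins, stood at 852 ± 59.4 TPM. The bridge Pros1 reached 355 ± 40.5 TPM and Gas6 73.3 ± 12.1 TPM. Havcr1 and Marco were silent.

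Of 20 purinergic and adenosine genes, 5 reached 100 CPM: P2ry12, the ADP receptor P2ry13 (977 ± 105 TPM), the ATP-degrading Entpd1 (590 ± 58.3), the UDP receptor P2ry6 (320 ± 52.1) and the ATP-gated channel P2rx7 (141 ± 15.3). P2ry1, P2ry4 and P2rx2 were silent. Of 36 neurotransmitter receptors, 10 were silent and 8 averaged at least 1 CPM. Adrb1, a beta-adrenergic receptor, reached 130 ± 46.9 TPM, the GABA-B subunit Gabbr1 38.7 ± 6.81 TPM and the cannabinoid receptor Cnr2 18.8 ± 1.79 TPM.

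Of the 25 Toll-like receptor and inflammasome genes measured, 22 averaged at least 10 CPM and none was silent. The MD-1 protein Ly86 led with 1220 ± 74.9 TPM, before the co-receptor Cd14 (710 ± 131), Tmem173, which encodes STING (507 ± 37.4), Tlr7 (459 ± 115) and the inflammasome sensor Nlrp3 (215 ± 40.9). Cytokine genes covered a wide range. The chemokines Ccl4 (1507 ± 370 TPM) and Ccl3 (1342 ± 393 TPM) and the interleukin Il1a (828 ± 183 TPM) stood among the 200 highest genes in every library, while Csf2, Csf3, Ifnb1, Ifng, Il12a and Cxcl9 were silent. Tnf reached 160 TPM and Il1b 63.3 TPM. The trophic factor Igf1 averaged 1.69 TPM, and Bdnf, Gdnf and Ntf3 were silent.

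Genes that mark a reaction to disease or interferon were mixed in level. In the list of 23 disease-associated genes, Ctsd, B2m and Tyrobp belong to the highest genes of the profile, and Cd9 (1297 ± 113 TPM) and Cd68 (869 ± 166 TPM) were high as well. The other end of the same list was low: Cst7 averaged 18.0 TPM, Clec7a 10.6, Spp1 5.02, Itgax 2.86 and Lgals3 2.10 TPM. Gpnmb, at 0.0267 CPM, was below the level of 3 counts over the group (0.0715 CPM). Interferon-stimulated genes summed to 0.0477% of CPM, and none of the 30 reached 100 CPM. Bst2, a tethering factor for virus particles, was the highest of them at 165 ± 32.3 TPM. Of 28 cell cycle genes, 21 reached 1 CPM, 10 reached 10 CPM and 3 reached 100 CPM, and they summed to 0.0962% of CPM. Mki67, a marker of cycling cells, averaged 2.95 ± 1.13 TPM.

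Immediate early and dissociation stress genes were abundant, with 1.68% ± 0.28 of CPM and 24 of 31 members among the 1000 highest genes per length. The AP-1 subunit Junb (3000 ± 747 TPM), the GTPase Rhob (2999 ± 395) and the NF-kappaB inhibitor Nfkbia (2256 ± 529) led the list, followed by Ier2 (2097 ± 391) and Jun (1593 ± 207). Junb was highest in replicate 5 (4417 TPM) and between 2285 and 3152 TPM in the others. Heat shock and chaperone genes summed to 0.624% ± 0.142 of CPM, led by the HSP70 members Hspa8 (1516 ± 421 TPM) and Hspa5 (908 ± 190 TPM) and the endoplasmic HSP90 Hsp90b1 (901 ± 101 TPM). How much of either list arose while the cells were prepared was not tested, since every library of the group was digested.

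**Figure D2:**
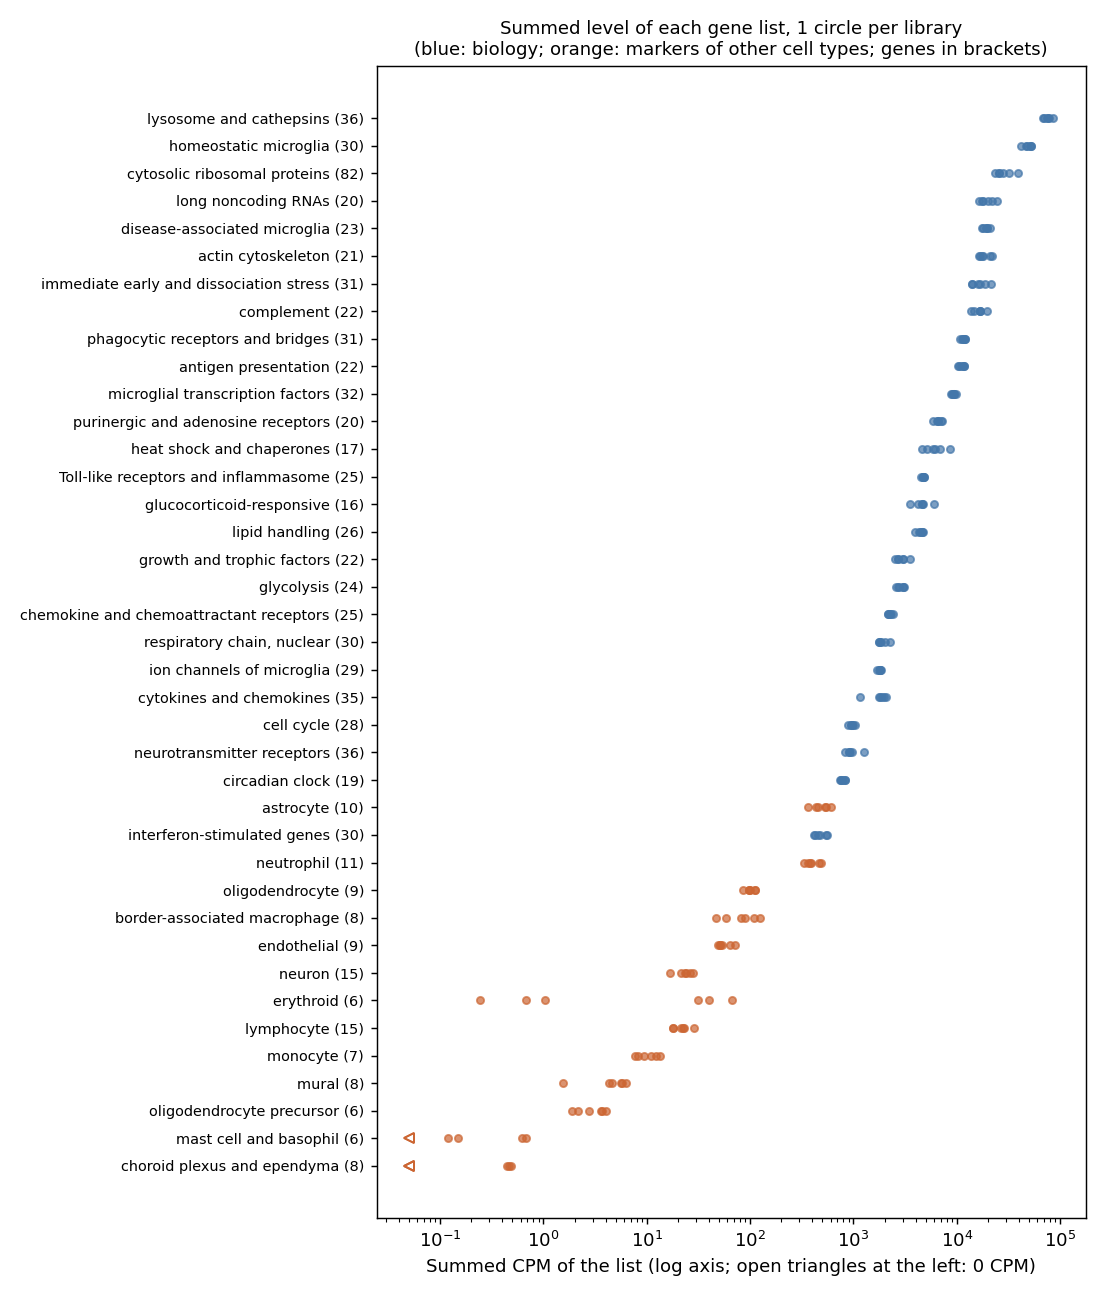
Summed CPM of each gene list on a log axis, 1 circle per control saline library, blue for biology lists and orange for markers of other cell types, with the number of listed genes in brackets. Lysosome genes are highest, and the astrocyte markers, at 365 to 602 CPM, are the highest marker list on the mean. In replicate 5 the neutrophil markers are higher (481 against 365 CPM). The erythroid markers split into 3 libraries above 31 CPM and 3 near 1 CPM or below.

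Among protein-coding genes, 6585 of 21961 (30.0%) had no count in any of the 6 libraries, with 42.0 M counts in all. A count of 0 allows up to 3 counts over the group, or 0.0715 CPM, as far as counting error goes. Olfactory receptors were its largest family. Of 1135 olfactory receptors, 1012 (89.2%) were silent, as were 307 of 331 vomeronasal and 31 of 38 taste receptors. The highest of the rest per length were Olfr111 (36.2 ± 9.86 TPM) and Olfr110 (13.1 ± 2.87 TPM), both on chromosome 17. Olfr111 was present at 19.5 CPM or more in each library.

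Genes of epithelia and of body patterning were silent almost throughout: 57 of 57 keratin-associated proteins, 47 of 53 keratins, 22 of 22 alpha-defensins, 40 of 42 beta-defensins and 38 of 39 Hox genes. Of 18 type I interferons 13 were silent, of 100 cytochrome P450 genes 74 and of 20 connexins 13. At the other end, no member was silent among 50 proteasome genes, 78 mitochondrial ribosomal proteins, 18 voltage-gated calcium channel genes and 12 Toll-like receptors, though a single count is enough to leave the set. Zinc finger genes named Zfp were silent in 22 of 394 cases and Rab GTPases in 3 of 59. MicroRNA (2177 of 2207) and small nucleolar RNA genes (1436 of 1507) were silent for the most part, in libraries primed at a poly(A) tail.

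Markers of other cells were low beside those of microglia. The 30 homeostatic genes summed to between 41980 and 52278 CPM per library. Neuronal markers summed to 16.9 to 27.9 CPM, oligodendrocyte markers to 85.3 to 112, endothelial to 48.8 to 71.4, mural to 1.53 to 6.29 and choroid plexus to 0 to 0.480 CPM. The astrocyte sum of 365 to 602 CPM came mostly from the glutamate transporter Slc1a3 (412 CPM). Per length, Slc1a3 averaged 169 TPM, Slc1a2 15.4 TPM, and Aqp4 and Gfap 3.08 and 0.374 TPM. Of the 10 astrocyte markers, 7 averaged at least 1 CPM, and 2 reached 10 CPM, Slc1a3 and Slc1a2 (57.2 CPM). Likewise, most of the neutrophil sum of 331 to 481 CPM was the cytokine receptor Csf3r (387 CPM, or 373 TPM). Of the 11 neutrophil markers, 6 averaged at least 1 CPM, Csf3r alone reached 10 CPM, and Elane, Mpo and Retnlg were at 0. Border-associated macrophage markers summed to 46.7 to 124 CPM and monocyte markers to 7.69 to 13.5 CPM, and 10 of 15 lymphocyte markers were at 0. In such bulk libraries, fewer cells of a type and less RNA per cell cannot be told apart.

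Spread between libraries was measured for 9036 genes with a mean of at least 10 CPM, as a gene's biological coefficient of variation divided by that of genes of like abundance. The median ratio was 0.842, and the median gene's highest library was 1.55 times its lowest. A gene is called variable here at a ratio of at least 2, which 179 genes (1.98%) reached, and stable at 0.5 or less, which 1473 (16.3%) did. With 6 libraries a single gene's ratio has a wide error: 157 genes sat at the lower limit of the estimate. Just inside the first threshold were Sec61b (2.001) and Nelfcd (2.003) and just outside Cd74 (1.997) and Adck5 (1.977). At the second, Arhgef2 (0.49995) and Cbx5 (0.49992) were inside and Tm9sf2 (0.500016) and Scfd1 (0.5002) outside.

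**Figure D3:**
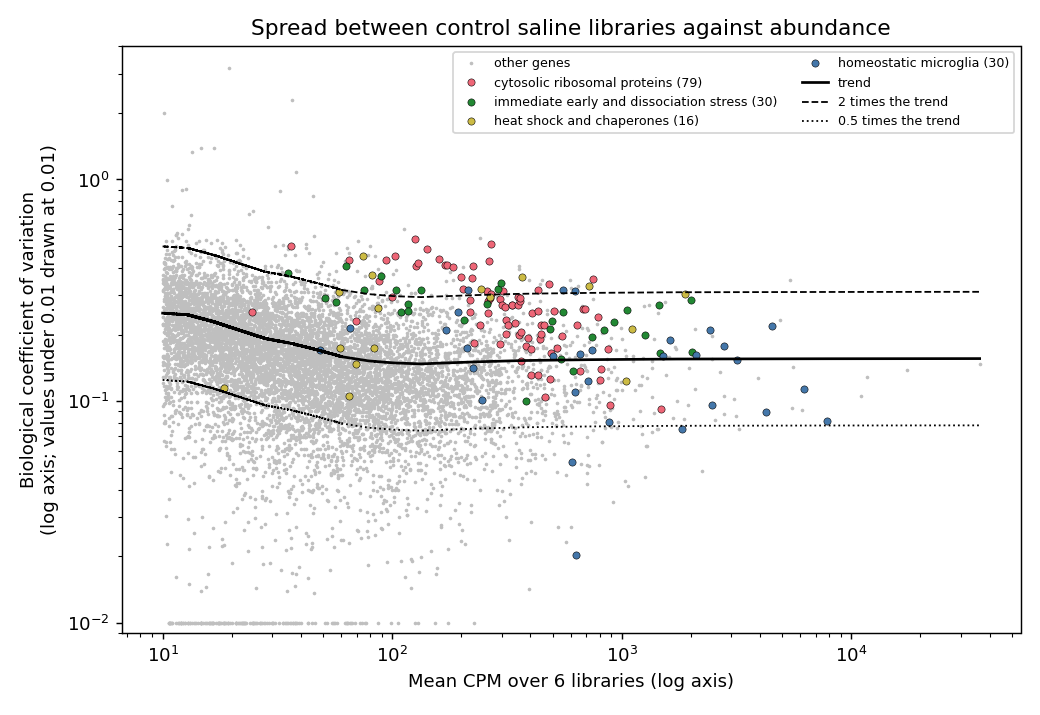
Biological coefficient of variation of each of the 9036 genes over the 6 control saline libraries against mean CPM (both axes log), with the abundance trend as a line, 2 and 0.5 times the trend as broken lines, and 4 gene lists in colour. Ribosomal, immediate early and heat shock genes lie mostly above the trend, with median ratios of 1.69, 1.72 and 1.85.

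Ribosomal protein genes were the largest group of variable genes. Of the 79 cytosolic ribosomal proteins measured, 25 (31.6%) were variable, beside 1.98% of all genes, and the median ratio of the 79 was 1.69. Rps29, of the small subunit, stood at 122, 265, 193, 347, 508 and 180 CPM in replicates 1 to 6, and Rps21 at 52.6, 123, 83.3, 163, 246 and 90.04 CPM. All 25 were highest in replicate 5 and lowest in replicate 1. Summed over the ribosomal proteins, the levels were 23326, 25485, 25741, 32089, 39376 and 28016 CPM. Rps4x (ratio 0.594) and Rpl7 (0.622) were the most even members. Without replicate 5, 17 ribosomal genes were variable, and without replicate 1, 18.

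Short transcripts, those under 1 kb, moved the same way as a class. Of 280 genes whose longest transcript is under 1 kb, 13.2% were variable, against 0.544% of 551 genes over 8 kb, and without ribosomal genes the first share was 7.72%. The median log2 difference of these short genes from their mean was -0.28 in replicate 1 and 0.42 in replicate 5, and that of genes over 8 kb was -0.01 and -0.17. For genes of 1 to 2 kb replicate 5 was again highest (0.23), but replicate 1 stood at 0.04 and replicate 3 was lowest (-0.16). Without replicate 5 the variable share was 8.12% of short and 0.911% of long genes (3.80% of short genes without ribosomal ones), and without replicate 1 it was 8.83% and 1.27%. The respiratory chain subunits Cox6a1 (ratio 2.14) and Cox8a (2.01) and the actin regulators Tmsb10, Pfn1 and Cotl1 were among the genes highest in replicate 5, and without this library no respiratory chain and no actin cytoskeleton gene was variable. Without replicate 1, too, no respiratory chain gene was, but 4 actin cytoskeleton genes were. Across all variable genes, replicate 5 was the highest library for 81 and the lowest for 52. Leaving it out kept 106 of the 179 (59.2%) variable, while leaving out any other kept 79.9% to 89.4%. Replicate 5 also had the highest total count (19.0 M), the largest removed share (56.3%) and the lowest share of mitochondrial counts (2.57%, others 3.70% to 4.63%). Its shares of CPM from unverified transcripts annotated as to be experimentally checked (1.11%, others 1.32% to 1.85%) and from sense-intronic RNAs (0.103%, others 0.130% to 0.188%) were the lowest too. The part of these values in the pattern was not tested.

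**Figure D4:**
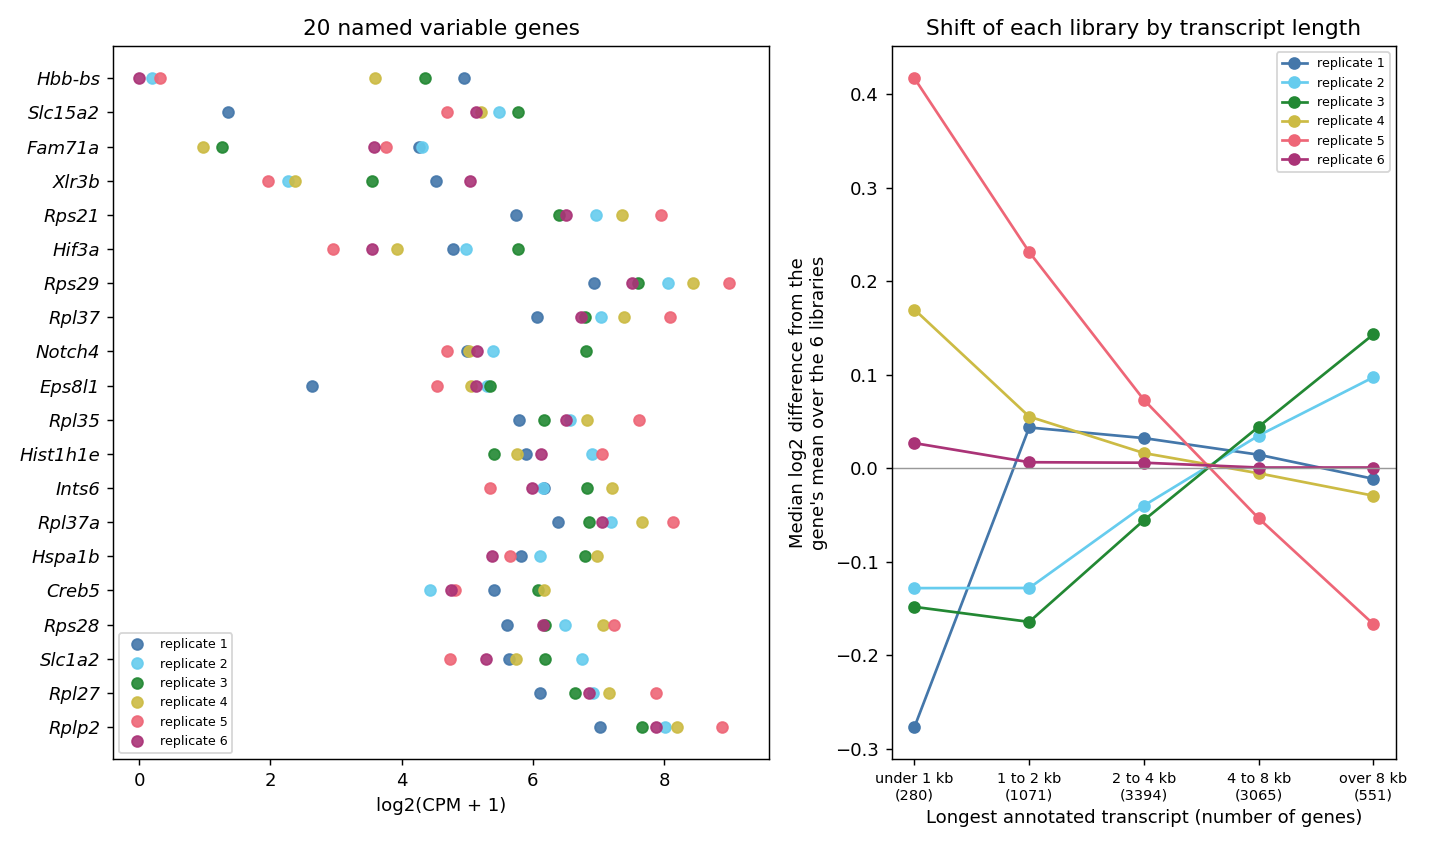
Left, log2(CPM + 1) of the 20 named variable protein-coding genes, 1 point per control saline library; right, each library's median log2 difference from the gene means by length of the longest transcript, with the number of genes in brackets. Ribosomal genes are highest in replicate 5, which on the right runs from 0.42 for the shortest genes to -0.17 for the longest.

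Heat shock genes were another such group, with 5 of 16 variable (31.3%) and a median ratio of 1.85. Hsp90aa1, the inducible cytosolic HSP90, stood at 351, 259, 424, 612, 326 and 235 CPM, Hsp90ab1 was highest in replicate 4 as well (1123 CPM against 486 to 798), and so was the co-chaperone Dnajb1 (350 CPM against 157 to 300). Summed over the list, replicate 4 held 8663 CPM and replicate 6 4638 CPM. Hspa1b (55.7, 68.2, 110, 125, 49.2 and 40.6 CPM) and Hspa1a (100, 56.9, 127, 84.9, 75.8 and 44.3 CPM) share 67.6% of the stretches of Hspa1b, and levels of either alone are uncertain. The count of variable members was 2 without replicate 6, 3 without replicate 4 and 7 or 8 without any of the others.

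Immediate early genes were variable in 8 of 30 cases (26.7%; Ccl3, Ccl4, Klf2, Klf4, Jund, Nr4a1, Egr2 and Dusp2), with a median ratio of 1.72. The chemokines Ccl3 and Ccl4 are members of both this list and that of the cytokines, where 6 of 16 were variable (37.5%; also Ccl2, Ccl12, Tnf and Il1b). Ccl3 stood at 397, 155, 229, 300.5, 356 and 346 CPM, Tnf at 76.0, 50.4, 48.7, 83.9, 126 and 72.1 CPM and Il1b at 38.5, 11.0, 34.8, 42.7, 52.7 and 30.9 CPM. Replicate 2 was lowest for Ccl3, Ccl4, Ccl2 and Il1b, and without it 3 cytokine genes and 5 immediate early genes were variable. The zinc finger factors Klf2 and Klf4 were lowest in replicate 6 (44.8 and 77.1 CPM), not in replicate 2, and without replicate 6 neither was variable. Of 11 glucocorticoid-responsive genes 2 were variable (18.2%), Tsc22d3, known as GILZ (834, 600, 690, 718, 357 and 362 CPM), and the co-chaperone Fkbp5 (292, 320, 508, 211, 184 and 256 CPM), and they peaked in different libraries. This count was 4 without replicate 5 and 1 without replicate 6.

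Of 30 homeostatic genes 3 were variable (10.0%, beside 1.98% of all genes): Ltc4s, Bin1 and Trem2, each highest in replicate 5. The list's median ratio was 1.04, beside 0.842 for all genes. Trem2, a lipid-sensing receptor, stood at 718, 527, 375, 517, 917 and 685 CPM, and it alone stayed variable without replicate 5. Without replicate 3, too, 1 homeostatic gene was variable. Apoe, a lipid carrier, was variable too, with 369, 320, 371, 353, 767 and 526 CPM, but not without replicate 5. No lysosome (of 32), glycolysis (of 20), phagocytic (of 19), interferon-stimulated (of 12) or housekeeping (of 16) gene was variable in the 6 libraries, against 1.98% of all genes. Lists of this size can hold none at that share, and none was variable either among 9 complement or 16 antigen presentation genes. The same held for 18 ion channel, 12 long noncoding RNA, 10 circadian clock and 10 cell cycle genes. It also held for 8 chemokine and chemoattractant receptor, 8 trophic factor, 7 purinergic and 4 Y-linked or Xist genes. Without replicate 5, 1 phagocytic and 1 interferon-stimulated gene were variable, and without replicate 1 or 4, 1 housekeeping gene was. Antigen presentation held 1 variable gene without replicate 1, 3, 4 or 6. The cell cycle, ion channel, trophic factor and Y-linked lists each held 1 variable gene without replicate 1 and, apart from trophic factors, also without some others.

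Single genes with no list stood out further. Slc15a2, a peptide transporter, was at 1.54 CPM in replicate 1 and at 24.8 to 54.0 CPM in the others (ratio 4.75). Eps8l1, an actin-binding adaptor, was low in the same library, with 5.23 CPM against 22.3 to 39.9 CPM (ratio 3.19). Without replicate 1 their ratios were 1.504 and 1.08, so both calls rest on that library. The receptor gene Notch4 stood at 111 CPM in replicate 3 and at 24.97 to 41.2 CPM elsewhere (ratio 3.23, and 0.84 without replicate 3). Hif3a, of the hypoxia-inducible factor family, was also highest in replicate 3 and lowest in replicate 5 (26.6, 30.5, 53.5, 14.2, 6.75 and 10.7 CPM). So was Zbtb16, with 28.1 CPM in replicate 3 against 1.81 to 6.10 CPM, though its mean was below the 10 CPM needed for a ratio.

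Fam71a was at 1.40 and 0.960 CPM in replicates 3 and 4 and at 10.9 to 18.9 CPM in the other 4 (ratio 4.02). The same pair of libraries, which shares part of its ID, was highest for the integrator subunit Ints6 (112 and 147 CPM, others 39.7 to 71.2), Hspa1b and the transcription factor Creb5 (66.9 and 71.1 CPM, others 20.7 to 41.5). Over all 179 variable genes, replicates 3 and 4 were the pair of highest or of lowest libraries for 29, fewer than replicates 4 and 5 (70) and replicates 1 and 3 (52). The linker histone Hist1h1e was high in replicates 2 and 5 (118 and 132 CPM) and between 41.4 and 68.4 CPM in the rest. Of the 8 histone genes measured, 4 were variable (50%, beside 1.98% of all genes). Summed histone genes reached 485 and 533 CPM in replicates 2 and 5 and 286 to 331 CPM in the rest. Xlr3b, on the X chromosome, ran from 2.89 to 32.1 CPM but shares 69.0% of its stretches with other transcripts.

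Calls also fell on markers of other cells. Hbb-bs, a beta-globin chain, had the highest ratio of the named genes (7.96), with 29.8, 0.149, 19.4, 11.1, 0.241 and 0 CPM, and the erythroid markers together summed to 66.2, 1.04, 40.3, 31.2, 0.241 and 0.682 CPM. The glutamate transporter Slc1a2, an astrocyte marker, stood at 48.9, 106, 71.7, 52.7, 25.8 and 37.9 CPM (ratio 2.89). Their part in other results was not tested.

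The highest ratios of all belonged to a pair of pseudogenes that are copies of each other. Gm11518 and Rpl27-ps3 are each 411 bases long and share 100% of their 31-letter stretches. Gm11518 stood at 31.5, 0.0193, 0.00155, 36.2, 0.0205 and 48.9 CPM, and Rpl27-ps3 at 0, 61.9, 53.9, 36.2, 67.5 and 0 CPM. Where one was high the other was low, apart from replicate 4. Their sum was 31.5, 62.0, 53.9, 72.5, 67.5 and 48.9 CPM, and the highest was 2.30 times the lowest. Of 178 variable genes with a transcript sequence, 46 (25.8%) shared over 50% of their stretches with other genes, and the part of read assignment in their ratios was not tested. This share was not computed over all measured genes, so 25.8% cannot be called high or low. Slc15a2, Eps8l1 and Hif3a shared less than 1% and Fam71a and Notch4 none.

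The 12 stable genes named lay within narrow ranges. Hp1bp3, a heterochromatin protein, lay between 151 and 156 CPM in all 6 libraries (ratio 0.0666). Ccdc93, an endosomal sorting protein, ran from 217 to 241 CPM (0.0657), the histone acetylation subunit Kansl1 from 166 to 185 (0.0663), the G protein subunit Gng2 from 118 to 134 (0.0670) and Arid4a from 121 to 133 CPM (0.0670). These genes and Hp1bp3 all sat at the lower limit of the estimate, a coefficient of 0.00988. Their ratios are that limit over the trend and do not rank them. The nuclear receptor coactivator Ncoa3 stayed within 373 and 412 CPM, the splicing and transcription factor Thrap3 within 149 and 166, Phf3 within 117 and 127, the ubiquitin ligase scaffold Cul1 within 145 and 161, the deubiquitinase Cyld within 105 and 117 and the membrane-bending Pacsin2 within 125 and 142 CPM. Tlr3, the receptor for double-stranded RNA, was the remaining one, at 109 to 120 CPM (ratio 0.109).

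Among the 27 biology lists, stable genes were most frequent in the phagocytic one, with 6 of 19 (31.6%) beside 16.3% of all genes: Mertk, Elmo1, Fcgr2b, Cd47, Dock2 and Itgav. Mertk ranged from 997 to 1124 CPM and the engulfment adaptor Elmo1 from 957 to 1116 CPM. The sort marker Itgam was the most even homeostatic gene, at 620 to 644 CPM (ratio 0.131), though it shares 68.3% of its 31-letter stretches with other transcripts and its level is uncertain. Golm1 (0.35) and Siglech (0.48) were also stable, while the sort marker P2ry12 had a ratio of 0.58. The repressor Zeb2, at 582 to 639 CPM, had a ratio of 0.18. In glycolysis 4 of 20 were stable (Ldhb, Pgam1, Slc2a1 and Hk1). No ribosomal, heat shock, immediate early or cytokine gene was stable. The same held for 16 housekeeping, 12 long noncoding RNA, 11 glucocorticoid-responsive, 8 trophic factor and 7 purinergic genes. Without replicate 4, 2 ribosomal, 2 heat shock, 1 immediate early and 1 cytokine gene were stable. Without replicate 2, 2 ribosomal genes and 1 cytokine gene were stable, and without replicate 3, 1 cytokine gene. Without replicate 5, 2 heat shock genes were stable, and without replicate 6, 1 heat shock and 1 immediate early gene. The housekeeping, long noncoding RNA, trophic factor and purinergic lists also held stable genes in some of these settings.

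The same measure was taken in 5 MIA saline libraries, from mice after maternal immune activation given saline, which were not used to choose the genes above. The library that the submitters titled excluded was left out. There 2.75% of genes were variable and 23.5% stable. Of 175 genes variable in the control group and measured in both, 72 (41.1%) were variable again, which is 30.8% of the 234 variable ones on that side, where 2.66% of all 8813 genes measured in both were. Their median ratio in the MIA group was 1.79, beside 0.791 for all genes. Of 1444 stable genes, 486 (33.7%) were stable again, or 23.3% of the 2087 stable on that side, beside 23.7% of all genes, and their median ratio was 0.656. The stable call recurred less far above its background than the variable call.

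Slc15a2 was variable in both groups, with 6.68, 0, 25.4, 49.0 and 32.1 CPM in the MIA libraries (ratio 9.49), and Fam71a likewise, with 14.5, 24.2, 54.4, 34.7 and 3.61 CPM (5.14). Hif3a (4.25), Notch4 (3.89), Slc1a2 (3.28), Eps8l1 (2.59) and Hist1h1e (2.33) were variable on both sides too, and Creb5 (1.299) and Ints6 (1.79) were not. Of the 25 variable ribosomal genes, 11 were variable in the MIA group, and the median ratio of all 79 was 1.40 there. Heat shock genes had a median ratio of 1.85 in both groups, and immediate early genes one of 1.95 in the MIA group, with 11 variable members. Trem2, Ltc4s and Bin1 had MIA ratios of 1.99, 1.011 and 1.51. Cyld (0.0782), Ccdc93 (0.106), Mertk (0.193) and Itgam (0.234) were stable on both sides, and Tlr3 (0.85), Gng2 (0.668) and Phf3 (0.641) were not.

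**Figure D5:**
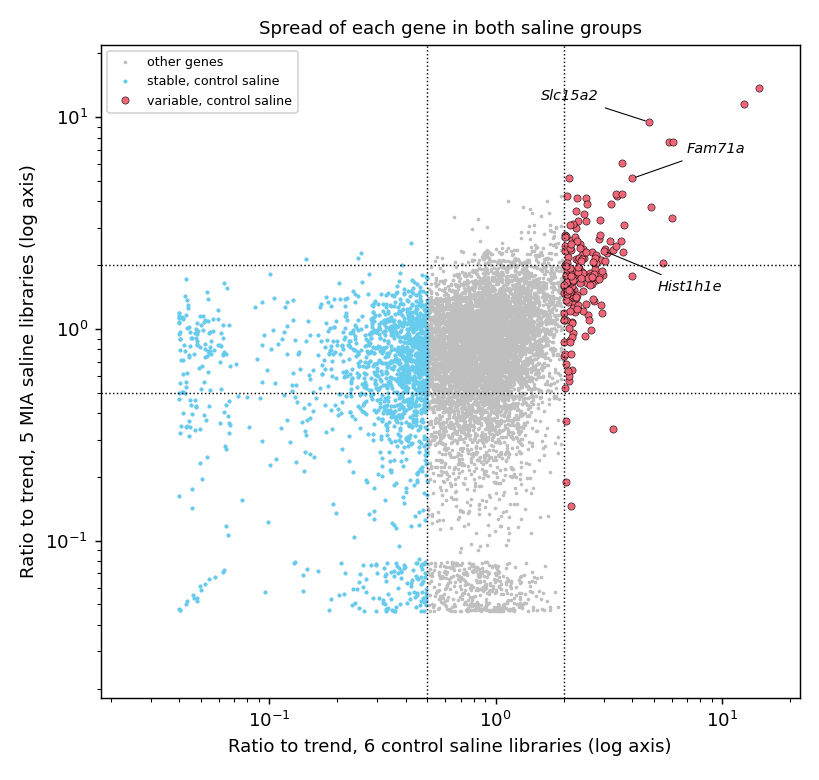
Ratio of each gene's variation to the trend in the 6 control saline libraries (horizontal) and in the 5 MIA saline libraries (vertical), both on log axes, with dotted lines at 0.5 and 2. Variable genes of the control group, in red, lie mostly above 1 on the vertical axis, with a median of 1.79, and the stable ones, in blue, are spread over most of the vertical range. The band at the bottom holds genes at the lower limit of the estimate.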

How the data were processed

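The deposited table held expected counts per gene (estimated counts, not normalized) for 55487 genes, and 6.48% of the values used were not whole. The submitters' processing notes name STAR, RSEM and DESeq2 but no version or step for any of them. Which build and annotation the counts rest on is not given in the sources used here. Symbols, types and exon lengths came from GENCODE M21 (GRCm38), which matched 55227 identifiers and left 260, with 0.0742% of the counts used, without a length. Ribosomal RNA and mitochondrial genes (391) were removed before CPM and TPM were computed. Whether counting used strand is not given, so antisense genes are uncertain. Replicate pairs differed by more than sampling noise.

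Biological coefficients of variation came from edgeR 4.0.16 (R 4.3.3, TMM scaling, intercept only, prior degrees of freedom 0) on counts rounded to whole numbers, for genes with a mean of at least 10 CPM, and were divided by the abundance trend. The script was tested on simulated data. No comparison between groups was tested. Alternatives used DESeq2 1.42.0, other scalings, filters, lengths and denominators, and leaving out each library. Shared stretches are runs of 31 letters of GENCODE M21 transcripts that also occur in another gene.

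Named genes are the 25 highest per length, the 20 protein-coding genes of highest ratio and the 12 of lowest ratio with at least 100 CPM (without Gm-numbered and Rik names). From each list the 3 highest and the variable, stable and silent members were open to naming, and further members are named by role. Some genes that this rule names are not reported here. Members and lists were chosen with earlier results of these data known. Tables were handled with pandas 2.3.3 and numpy 2.4.6 and drawn with matplotlib 3.10.9.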

Additional observations from a re-analysis of the deposited data

Results flagged for a closer look

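In groups of 6 libraries, the highest or lowest library was set against the others for 101 summed lists and named genes, and 3 lay apart by the 95% limit of Dixon's test. Chance gives about 1 in 20. The summed level of neurotransmitter receptors was highest in replicate 1, at 1254 CPM with the next library at 958 CPM. The summed level of cytokines and chemokines was lowest in replicate 2, at 1164 CPM, with the others between 1769 and 2057 CPM. Notch4 was highest in replicate 3, at 111 CPM, with the next library at 41.2 CPM.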

How the results depend on the processing

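No paired analysis was possible because 1 group was described and no groups were compared. With ribosomal RNA and mitochondrial genes kept, 2 genes held 50% of the CPM in place of 626, and the shares of CPM were 2.33% (homeostatic), 3.62% (lysosome), 0.782% (complement), 0.804% (immediate early), 0.298% (heat shock) and 1.38% (ribosomal proteins). Per kilobase, 242 genes held 50%. With the coefficient of variation against a running median, 376 genes were variable and 530 stable, 44 ribosomal genes were variable and 25.96% of variable genes were variable in MIA saline. From 1 CPM upward, 355 genes were variable and 2413 stable, and from 30 CPM 920 were stable. The cause was not tested, except that the filters change the number of genes measured.

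Leaving out each library in turn gave 6728 to 6821 silent protein-coding genes, 618 to 632 genes for 50% of the CPM, 188 to 218 variable and 1669 to 1853 stable genes. Variable ribosomal genes numbered 17 to 31, and 33.7% to 40.2% of variable and 31.3% to 32.9% of stable genes were called so again in MIA saline. Shares ran from 4.79% to 5.00% (homeostatic), 7.35% to 7.69% (lysosome), 1.57% to 1.69% (complement), 1.60% to 1.74% (immediate early), 0.575% to 0.656% (heat shock) and 2.69% to 3.01% (ribosomal proteins). With up to 3 counts taken as silent, 7743 protein-coding genes were silent, and with a mean under 0.1 CPM 7901. Alternatives for ribosomal genes, gene lists, transcript length and the MIA percentages were chosen after seeing the data. At this depth a gene under 0.0715 CPM over the group cannot be told from a silent one.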
